A study of Mus musculus with 6 samples.

Results

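The insulin signalling genes described here are 41 genes that carry the insulin signal from the receptor to AKT, mTOR, RAS and protein kinase C. They were taken by gene symbol from a table of 54232 genes, and each symbol named 1 row. Expression was measured by RNA sequencing of whole liver from mice aged 8 weeks and fed normal chow. There were 3 libraries from Nogo-/- knockouts and 3 from wild-type (WT) littermates. Nogo is encoded by Rtn4, a reticulon of the endoplasmic reticulum. The labels do not state whether each library is a separate mouse, so p-values measure the spread between these libraries. They also do not state the strain, the sex, the deleted part of the gene or whether the deletion was limited to a cell type, and the study's title asks how Nogo deficiency affects insulin signalling. The libraries are called knockout 1, 2 and 4 and wild type 2, 4 and 11, after the numbers in their labels.

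Insulin binds its receptor, a tyrosine kinase, which phosphorylates docking proteins such as IRS1, IRS2 and SHC1. IRS proteins recruit PI3-kinase, whose lipid product brings AKT to the membrane, where PDK1 and mTOR complex 2 activate it. In liver, AKT then holds FOXO factors out of the nucleus, relieves the brake of GSK3 on glycogen synthase and, through TSC and RHEB, turns on mTOR complex 1. SHC1, GRB2 and SOS1 carry a parallel signal through RAS to the MAP kinases. Most of this traffic runs through phosphorylation, which RNA counts do not measure.

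Library totals ran from 17568223 to 20902369 counts. Levels are given as CPM scaled by TMM. Rtn4 stood at 4.63, 8.22 and 4.69 CPM in knockout 1, 2 and 4, against 40.5, 52.9 and 56.0 CPM in wild type 2, 4 and 11, so every library carried the Rtn4 level of its label. The share of counts from mitochondrial genes was 28.6%, 19.7% and 11.8% for knockout 1, 2 and 4, and 6.17% to 6.90% for the wild-type libraries. The 11 hepatocyte markers found in the table, Alb among them, summed to 87815 to 126490 CPM in knockout and 100680 to 119710 CPM in wild type, a sum that is mostly Alb. Of these 11 markers 1 was called, Cps1, a urea cycle enzyme gene, which was lower at 758 to 1510 CPM in knockout and 2466 to 3263 CPM in wild type (edgeR adjusted p = 0.0102). Markers of some other cell types moved with genotype, and those of others did not. The 7 B cell markers summed to 19.2 to 33.7 CPM in knockout and 9.07 to 12.5 CPM in wild type, with 5 of 7 tested called higher. The 12 T and NK cell markers summed to 11.97 to 24.2 CPM in knockout and 4.85 to 7.52 CPM in wild type, with 4 of 7 tested called higher. The 7 neutrophil markers summed to 6.92 to 17.5 CPM in knockout and 2.61 to 3.72 CPM in wild type, with 3 of 3 tested called higher, while Ly6g had no count in 5 of the libraries and Mpo had counts in knockout 1 alone. Of 10 sinusoidal endothelial markers 5 were called lower. The sum of the 10 was 148 to 249 CPM in knockout and 237 to 308 CPM in wild type, ranges that overlapped. Of 12 Kupffer cell markers 1 was called, lower, with overlapping sums of 219 to 493 CPM in knockout and 284 to 448 CPM in wild type. Stellate and fibroblast markers gave 0 calls of 9, and cholangiocyte markers 1 of 5 tested, lower. Of 5 tested erythroid markers 1 was called higher and 1 lower. The part of cell make-up and of the mitochondrial share in the changes of single genes was not tested, except by the fits named below. In whole liver, fewer cells of a type and less RNA per cell cannot be told apart.

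Most of the pathway's genes held levels that did not differ detectably between the genotypes, and 5 of the 6 that did were adaptors at the receptor or inhibitors of the signal. Knockout and wild type were compared with edgeR's quasi-likelihood test, and calls were made where the p adjusted by Benjamini-Hochberg over all 13304 tested genes was under 0.05. Of the 41 genes 40 were tested, and 6 (15%) were called, where 17.0% of all tested genes were. Falls in knockout were found for Irs1, Shc1, Ptprf, Enpp1 and Phlpp1, 5 genes beside a background of 8.29% of genes called lower. Prkce was the 1 gene that rose, beside a background of 8.76% called higher. The median log2 fold change, knockout over wild type, was −0.18 over the 40 genes and 0.01 over all tested genes, and 28 of the 40 (70.0%) had a value below 0, against 49.1% of all tested genes. In 10 of the 40 genes (25.0%) all knockout libraries lay on one side of all wild-type libraries, against 38.9% of all tested genes. Knockout was lower in 9 of these 10 and higher in 1, where over all tested genes 19.2% lay apart and lower and 19.7% apart and higher. For 28 of the 34 genes that did not pass, the 95% interval of the fold change lay within a log2 value of −1 to 1, so a change beyond that size was outside their intervals. The count of called genes was 2, 3 and 9 without knockout 1, 2 and 4 and 2, 1 and 6 without wild type 2, 4 and 11.

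**Figure D1:**
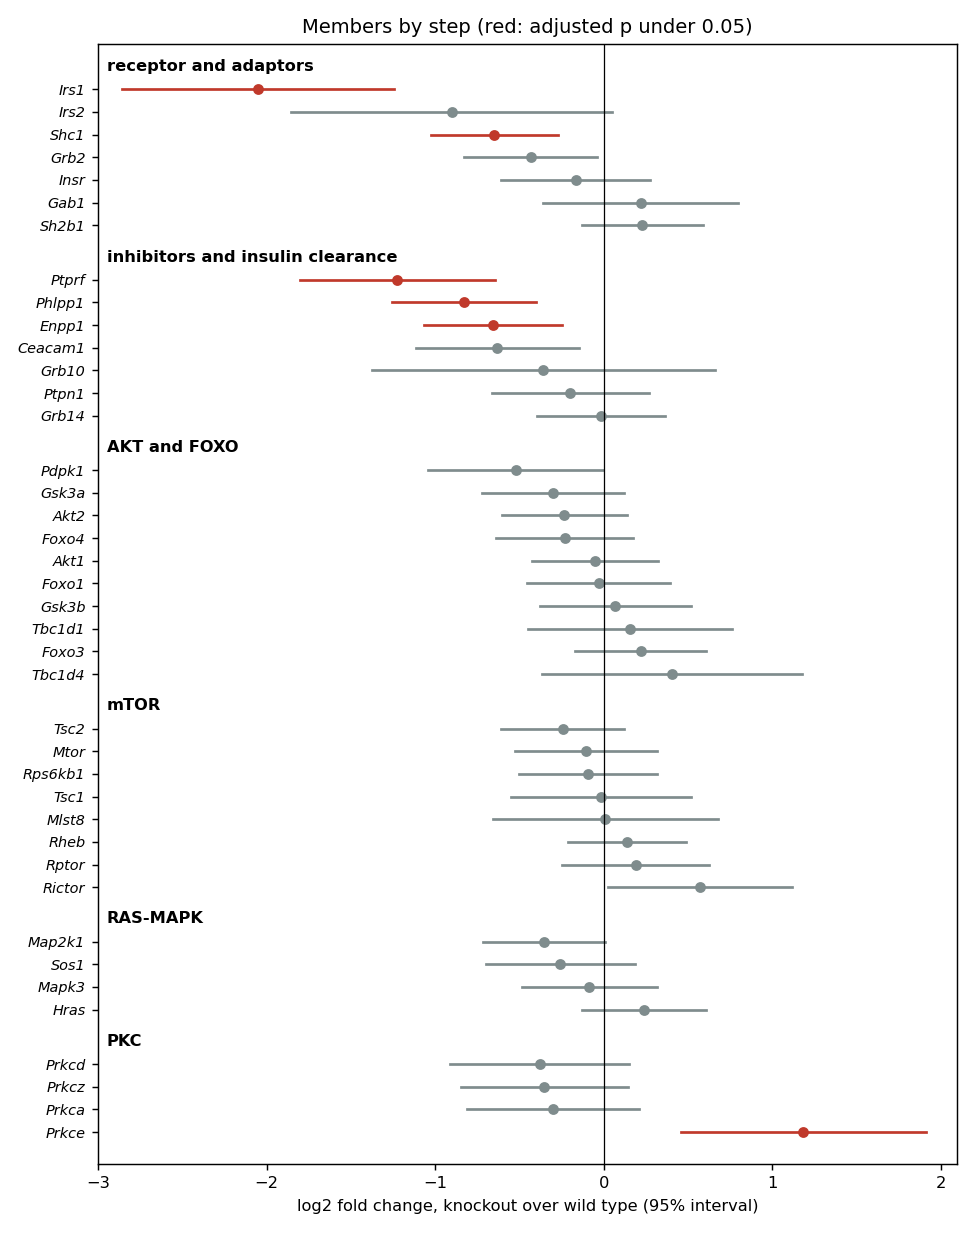
Log2 fold change (x axis, knockout over wild type) of the 40 tested genes by signalling step, with 95% intervals from edgeR. The red points are the 6 called genes, of which Irs1 at −2.05 lies lowest and Prkce at 1.19 highest.

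At the receptor and its adaptors, Irs1 and Shc1 were lower in knockout liver, whereas the receptor gene Insr did not pass the test. Irs1 encodes the docking protein through which the receptor engages PI3-kinase, and spans 82233101 to 82291416 of chromosome 1 (minus strand, mm10). It was measured at 0.927, 1.66 and 1.68 CPM in knockout 1, 2 and 4, against 6.51, 7.73 and 3.67 CPM in wild type 2, 4 and 11. These levels rest on 14, 31 and 28 raw counts in knockout and 137, 145 and 79 in wild type. The groups did not overlap, and wild type 11 was the lowest of its group. The log2 fold change was −2.05 with a standard error (SE) of 0.37 and an adjusted p of 0.00831 (edgeR). Of the 40 tested genes Irs1 was the only one that passed in all 6 fits that left out a library (edgeR adjusted p 0.00533 to 0.0378). An annotated gene on the opposite strand, Gm9747, covers 2822 of the 9144 exon bases of Irs1. It was listed at 0 in every library, and because no source used here states whether counting used strand, reads from the 2 genes cannot be told apart.

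Irs2 encodes the second liver docking protein and is a gene that fasting and FOXO1 are known to induce. It was the most variable of the 40 genes among the wild-type libraries, with a coefficient of variation (SD over mean) of 61.8%, where the median of the 40 was 12.1%. Its level was 20.9, 7.95 and 17.0 CPM in knockout 1, 2 and 4, against 21.8, 48.5 and 15.2 CPM in wild type 2, 4 and 11. The groups overlapped, and wild type 4 alone stood well above the rest. The log2 fold change of −0.90 ± 0.43 (SE) did not pass (edgeR adjusted p = 0.167), but with no low-count filter it did (edgeR adjusted p = 0.000329). The filter leaves the counts of Irs2 itself unchanged, at 148 to 909 per library. The cause of this shift was not tested, and the overlap of the groups remains.

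The promoters of Irs1 and Irs2 are shown because the 2 genes share a short stretch of sequence close to their RefSeq starts. Each window holds the 250 bases before the RefSeq start of the gene (GRCm38.p6, the patch release of mm10). The windows are chr1:82291440-82291689 for Irs1 and chr8:11008930-11009179 for Irs2, both on the minus strand and written 5′ to 3′. In the GENCODE annotation Irs1 begins at 82291416, near its window, but Irs2 begins at 11008458. The Irs2 window thus does not adjoin the GENCODE start. Capitals mark the E-box CACGTG and the sequence CAAAACA, which appears here as its reverse complement TGTTTTG and is the core of the insulin response sequence that FOXO factors bind in other promoters.
Irs1: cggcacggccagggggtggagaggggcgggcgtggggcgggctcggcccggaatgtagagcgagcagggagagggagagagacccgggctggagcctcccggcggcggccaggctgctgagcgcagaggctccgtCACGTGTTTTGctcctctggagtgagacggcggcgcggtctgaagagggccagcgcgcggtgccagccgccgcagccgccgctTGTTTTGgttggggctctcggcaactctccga
Irs2: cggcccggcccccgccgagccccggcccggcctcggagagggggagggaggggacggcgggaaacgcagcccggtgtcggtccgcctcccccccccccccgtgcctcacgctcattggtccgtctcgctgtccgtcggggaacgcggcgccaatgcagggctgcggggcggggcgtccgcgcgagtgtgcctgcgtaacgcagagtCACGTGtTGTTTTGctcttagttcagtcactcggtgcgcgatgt

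Counted from the base before the start as −1, the E-box of Irs1 spans −115 to −110 and overlaps one TGTTTTG at −111 to −105, and another TGTTTTG lies at −32 to −26. In Irs2 the E-box spans −44 to −39 and TGTTTTG follows at −37 to −31. Both promoters thus carry TGTTTTGCTC, found on either strand in 21 of 32851 promoter windows of the same length (0.064%). This 10-base sequence was picked after the 2 promoters had been read, so its rarity is a description. Both motifs together stood in 97 windows (0.295% of all), and among the windows of the pathway's genes in those of Irs1 and Irs2 alone. No other pair of the 7 motifs searched was counted together, so this rarity is a description too. Of the 41 genes 37 had promoter entries, 51 windows in all, and Insr, Foxo4, Mapk3 and Prkce had none. CACGTG was found in 5 of these 51 windows (9.80%, against 6.02% of all windows), those of Irs1, Irs2, Ceacam1, Prkcd and Rheb. CAAAACA was found in 5 (9.80% against 5.56%), those of Irs1, Irs2, Gab1, Ide and Sh2b1. Another 5 motifs were searched on both strands. GTAAACA was present in 1 of the 51 windows, that of Akt1 (3.17% of all windows), TTCNNNGAA in 3 (7.02% of all), GGGCGG in 28 (54.9%, against 32.7% of all), and TGACGTCA (1.55% of all) and TCACNCCAC (1.05% of all) in 0. The windows of Shc1, Ptprf, Enpp1 and Phlpp1 held neither CACGTG nor CAAAACA.

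Shc1, whose product couples the receptor to GRB2, fell as well. Its gene spans 89418443 to 89430027 of chromosome 3 (plus strand), and 7.1% of its 50-base words recur in other genes. Its level was 28.7, 33.3 and 35.9 CPM in knockout, against 47.5, 56.8 and 49.2 CPM in wild type, with no overlap (log2 fold change −0.65 ± 0.17 SE, edgeR adjusted p = 0.0286). It passed in 2 of the 6 fits that left out a library. Grb2, the adaptor that carries SOS to the membrane, had the same pattern at a smaller size. Of its 50-base words 7.5% recur in other genes. Its level was 32.5, 41.3 and 46.0 CPM in knockout and 53.6, 51.9 and 56.3 CPM in wild type, without overlap, but it did not pass (−0.43 ± 0.18, edgeR adjusted p = 0.116).

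Insr, the receptor gene, was measured at 114, 117 and 93.6 CPM in knockout and 122, 147 and 95.5 CPM in wild type. The groups overlapped, and the difference did not pass (−0.17, 95% interval −0.61 to 0.28, edgeR adjusted p = 0.592). The docking adaptor Gab1 (0.22) and the receptor adaptor Sh2b1 (0.23) were the receptor-end genes with positive log2 fold changes. Sh2b1 had levels of 36.5, 42.5 and 42.2 CPM in knockout and 36.2, 35.7 and 31.5 CPM in wild type, which did not overlap but did not pass (edgeR adjusted p = 0.347). In all, 2 of these 7 genes fell and 0 rose, with 3 at an unadjusted p under 0.05. DESeq2 and limma-voom each called 2 as well. Over all tested genes edgeR called 8.29% lower and 8.76% higher, and the difference of this group from them was not tested.

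**Figure D2:**
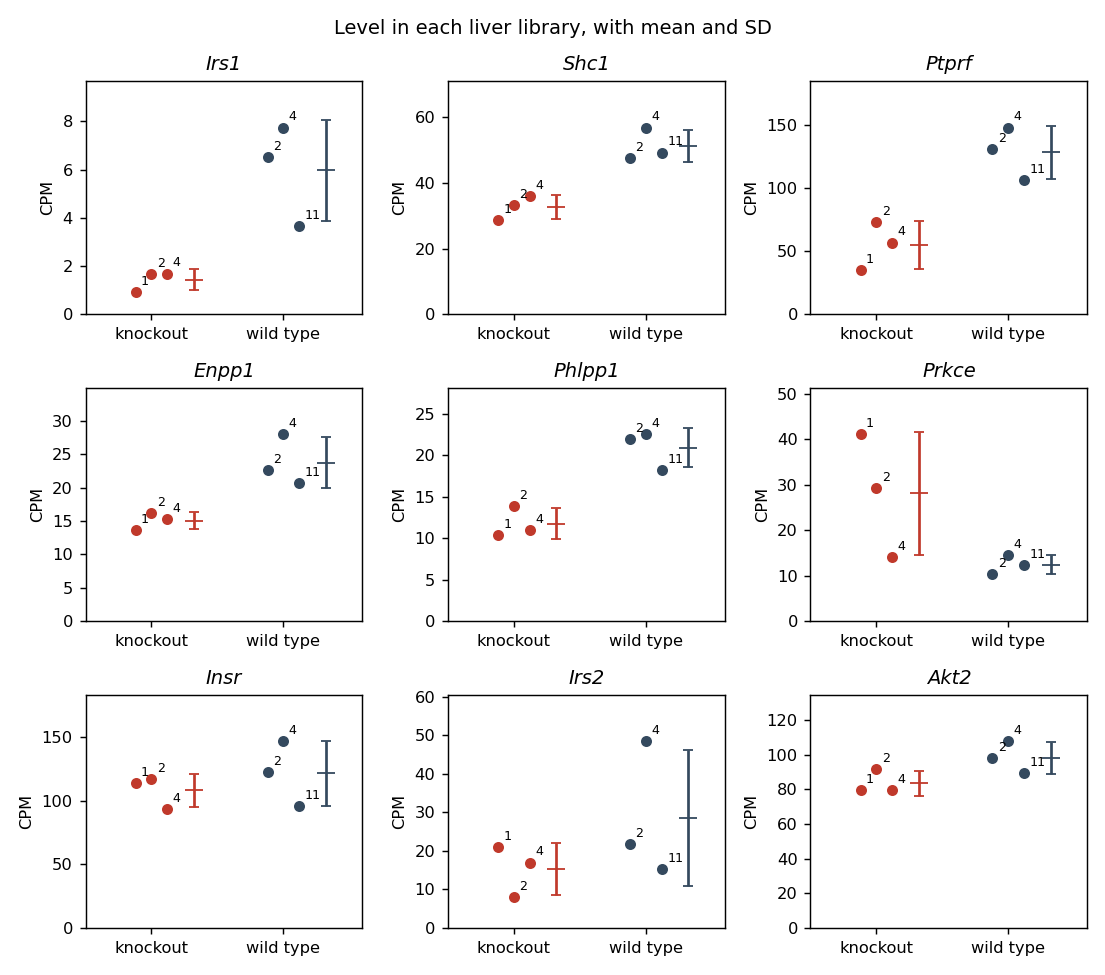
CPM (y axis, from 0) of the 6 called genes and of Insr, Irs2 and Akt2 in each library, with the library number beside each point and the mean ± SD beside each group (n = 3). Irs1, Shc1, Ptprf, Enpp1 and Phlpp1 show separate groups, whereas knockout 4 of Prkce, at 14.1 CPM, lies among the wild types.

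Among 8 genes whose products restrain the insulin signal or clear insulin, Ptprf, Phlpp1 and Enpp1 fell in knockout liver and 0 rose. The 7 that were tested all had a log2 fold change below 0, with a median of −0.63. Over all tested genes 8.29% were called lower and 49.1% had a value below 0, and the difference of this group from them was not tested. Ptprf encodes LAR, a receptor-type tyrosine phosphatase reported to act on the insulin receptor, and spans 118208213 to 118291405 of chromosome 4 (minus strand). Its level was 34.8, 72.8 and 56.9 CPM in knockout 1, 2 and 4, against 131, 148 and 106 CPM in wild type 2, 4 and 11. The groups were well apart, and knockout 1 was the lowest of all. The log2 fold change was −1.23 ± 0.26 (SE, edgeR adjusted p = 0.0140), and the call was lost without wild type 4 (adjusted p = 0.0573) but kept in the other 5 fits that left out a library.

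Phlpp1, a phosphatase that removes the activating phosphate of AKT, spans 106171752 to 106394250 of chromosome 1 (plus strand). It stood at 10.3, 13.9 and 11.01 CPM in knockout and 21.99, 22.5 and 18.2 CPM in wild type (−0.83 ± 0.19 SE, edgeR adjusted p = 0.0189). Enpp1, a membrane pyrophosphatase that binds the receptor and dampens it, spans 24637914 to 24712159 of chromosome 10 (minus strand). Its levels were 13.6, 16.2 and 15.3 CPM in knockout and 22.6, 28.0 and 20.7 CPM in wild type (−0.66 ± 0.18 SE, edgeR adjusted p = 0.0370). Neither gene had overlapping groups. Phlpp1 passed in 3 and Enpp1 in 2 of the 6 fits that left out a library.

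Ceacam1, which promotes insulin uptake and clearance by hepatocytes, came nearest to the threshold among the genes that missed it. It was measured at 50.2, 61.9 and 87.5 CPM in knockout 1, 2 and 4, against 105, 112 and 92.2 CPM in wild type 2, 4 and 11. The groups did not overlap, but knockout 4 lay close to wild type 11. Its log2 fold change was −0.63 ± 0.22 (SE, edgeR adjusted p = 0.0701), with adjusted p = 0.0443 by DESeq2 and 0.0480 when scaled by library totals. Ceacam2 and other genes share 30.4% of the 50-base words of Ceacam1, so its value is uncertain.

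The other tested inhibitors did not pass. Grb14, an adaptor that blocks the receptor's kinase and is abundant in liver, had 58.3, 49.2 and 66.4 CPM in knockout and 60.1, 56.8 and 58.8 CPM in wild type (−0.02, 95% interval −0.40 to 0.36). Its paralog Grb10 was low, at 0.644 to 2.23 CPM in knockout and 1.44 to 2.65 CPM in wild type, and its interval was wide (−1.37 to 0.66). Ptpn1, the gene of the receptor phosphatase PTP1B, had a log2 fold change of −0.20. Ide, the gene of the insulin-degrading enzyme, was listed at 0 in all 6 libraries and was not tested. Ide is known to be broadly expressed, and whether the counting step dropped its reads cannot be told from the table, so the 0 is not read as absence from liver. For reads that were counted, a floor of 3 counts is 0.144 to 0.171 CPM in these libraries and covers counting error only.

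Downstream, no AKT or FOXO gene was found to change. Of 10 genes 0 were called by edgeR, DESeq2 or limma-voom, and edgeR gave 1 at an unadjusted p under 0.05. Over all tested genes edgeR called 17.0%, and differences between the steps of the pathway were not tested. Log2 fold changes ran from −0.52 for Pdpk1 to 0.41 for Tbc1d4, with a median of −0.04. Akt2, the AKT form known to carry insulin's metabolic signal in liver, was measured at 79.3, 91.9 and 79.5 CPM in knockout and 97.8, 108 and 89.3 CPM in wild type. Knockout 2 exceeded wild type 11, so the groups overlapped (−0.23, 95% interval −0.61 to 0.14, edgeR adjusted p = 0.355). Akt1 had a log2 fold change of −0.05.

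Pdpk1, the kinase that activates AKT, had the largest difference of this step. It stood at 15.6, 18.9 and 17.4 CPM in knockout 1, 2 and 4, against 30.1, 28.2 and 16.3 CPM in wild type 2, 4 and 11. Wild type 11 lay among the knockouts and apart from the other wild types, and the difference did not pass (−0.52 ± 0.24 SE, edgeR adjusted p = 0.145). Without wild type 11 it did (−0.76, adjusted p = 0.0347).

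The FOXO transcription factor genes did not pass. Foxo1 was measured at 33.8, 35.8 and 27.0 CPM in knockout and 35.4, 36.7 and 26.5 CPM in wild type, 2 ranges that nearly coincide (−0.03, 95% interval −0.45 to 0.40, edgeR adjusted p = 0.929). The sign of this small value turned without knockout 4, wild type 2 or wild type 4. Foxo3 and Foxo4 had log2 fold changes of 0.22 and −0.23. Gsk3a and Gsk3b, the kinases that restrain glycogen synthase, had log2 fold changes of −0.30 and 0.07. Tbc1d4 and Tbc1d1, Rab GTPase-activating proteins that AKT phosphorylates in muscle and fat, were low in liver at 1.35 to 5.23 CPM over both genes and all libraries, with 0.41 and 0.16.

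The log2 fold changes of the mTOR genes centred on 0. Of 8 genes 0 were called by edgeR, DESeq2 or limma-voom, edgeR gave 1 at an unadjusted p under 0.05, and the median was 0.00. The share of all tested genes called by edgeR was 17.0%. Mtor, the kinase of both complexes, had 33.2, 32.3 and 35.6 CPM in knockout and 42.4, 38.4 and 27.8 CPM in wild type (−0.10, 95% interval −0.52 to 0.32, edgeR adjusted p = 0.733). The knockout libraries lay close together and inside the wild-type range, and without wild type 2 the log2 fold change was 0.01. Rptor, the defining subunit of complex 1, had a log2 fold change of 0.19, and Mlst8, a subunit of both complexes, had 0.01.

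Rictor, which defines the complex 2 that phosphorylates AKT, had the highest value of this step. Its level was 27.0, 18.4 and 14.2 CPM in knockout 1, 2 and 4, against 14.9, 14.2 and 10.96 CPM in wild type 2, 4 and 11. Knockout 4 lay among the wild types, and the difference did not pass (0.57 ± 0.25 SE, edgeR adjusted p = 0.132), although it did without knockout 4 (0.75, adjusted p = 0.0305). Tsc1 and Tsc2, which together hold RHEB inactive, had values of −0.02 and −0.24. The 3 knockout levels of Tsc2, at 25.9, 23.5 and 27.0 CPM, were below the wild-type levels of 29.2, 33.2 and 27.9 CPM without passing. Rheb, the GTPase that turns on complex 1, had 0.14, and Rps6kb1, the S6 kinase it drives, had −0.09.

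In the RAS-MAPK branch 0 of 4 genes were called by edgeR, DESeq2 or limma-voom, and edgeR gave 0 at an unadjusted p under 0.05. With 17.0% of all tested genes called by edgeR, a group of 4 is too small to set apart from that share. Map2k1, the gene of the kinase MEK1, had 36.5, 37.4 and 30.7 CPM in knockout and 45.4, 42.0 and 46.2 CPM in wild type. These groups did not overlap, but the difference did not pass (−0.35 ± 0.16 SE, edgeR adjusted p = 0.154). Sos1, which loads RAS with GTP, had a log2 fold change of −0.26, Hras had 0.24 and Mapk3, the gene of ERK1, had −0.09.

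Among the protein kinase C genes Prkce rose and the other 3 had values below 0. Over all tested genes edgeR called 8.76% higher and 49.1% had a value below 0. A group of 4 is too small to set apart from these shares. Prkce encodes PKC-epsilon, a lipid-activated kinase known for its inhibitory action on the insulin receptor in fatty liver, and spans 86167785 to 86657919 of chromosome 17 (plus strand), where AC154542.1 shares 472 of its exon bases. Its level was 41.1, 29.2 and 14.1 CPM in knockout 1, 2 and 4, against 10.3, 14.5 and 12.3 CPM in wild type 2, 4 and 11. Knockout 4 lay inside the wild-type range, so the rise rests on knockout 1 and 2 (1.19 ± 0.33 SE, edgeR adjusted p = 0.0347). Their mitochondrial shares, 28.6% and 19.7%, were the highest of the series. The call was lost in 5 of the 6 fits that left out a library, with adjusted p-values up to 0.133, and in limma-voom (0.0517), and it held without knockout 4 (0.00121). The log2 fold changes were −0.38 for Prkcd, −0.35 for Prkcz and −0.30 for Prkca, none of which passed. Prkcz shares 14.8% of its 50-base words with other genes, mostly Prkcz2. Prkca overlaps 30 exon bases on the opposite strand of Apoh, a gene at 1754 to 2342 CPM here, so its low level of 4.67 to 7.20 CPM is uncertain.

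The mitochondrial share of each library was set beside the called genes. Irs1, Shc1, Ptprf, Enpp1 and Phlpp1 lay below every wild type in all 3 knockouts, including knockout 4, the knockout with the lowest share. These genes were called with knockout 4 in the fit. Its share of 11.8% also exceeded the wild-type shares of 6.17% to 6.90%. With knockout 4 alone against the 3 wild types, where the knockout is assumed to vary like the wild types, the log2 fold changes were −1.82, −0.51, −1.17, −0.63 and −0.92 for these 5 genes and 0.19 for Prkce. That fit called 0 of the 40 genes by edgeR, 6 being at an unadjusted p under 0.05. With the mitochondrial share as a covariate in all 6 libraries, edgeR also called 0, with 1 gene at an unadjusted p under 0.05, and 0 of all tested genes, so that fit made no call anywhere. No other tool was run with either fit. The covariate moved the log2 fold changes to −1.40 for Irs1, −0.38 for Shc1, −0.65 for Ptprf, −0.50 for Enpp1, −0.74 for Phlpp1 and −0.14 for Prkce, the last with its sign turned. The share and the genotype did not overlap, so their effects cannot be told apart.

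**Figure D3:**
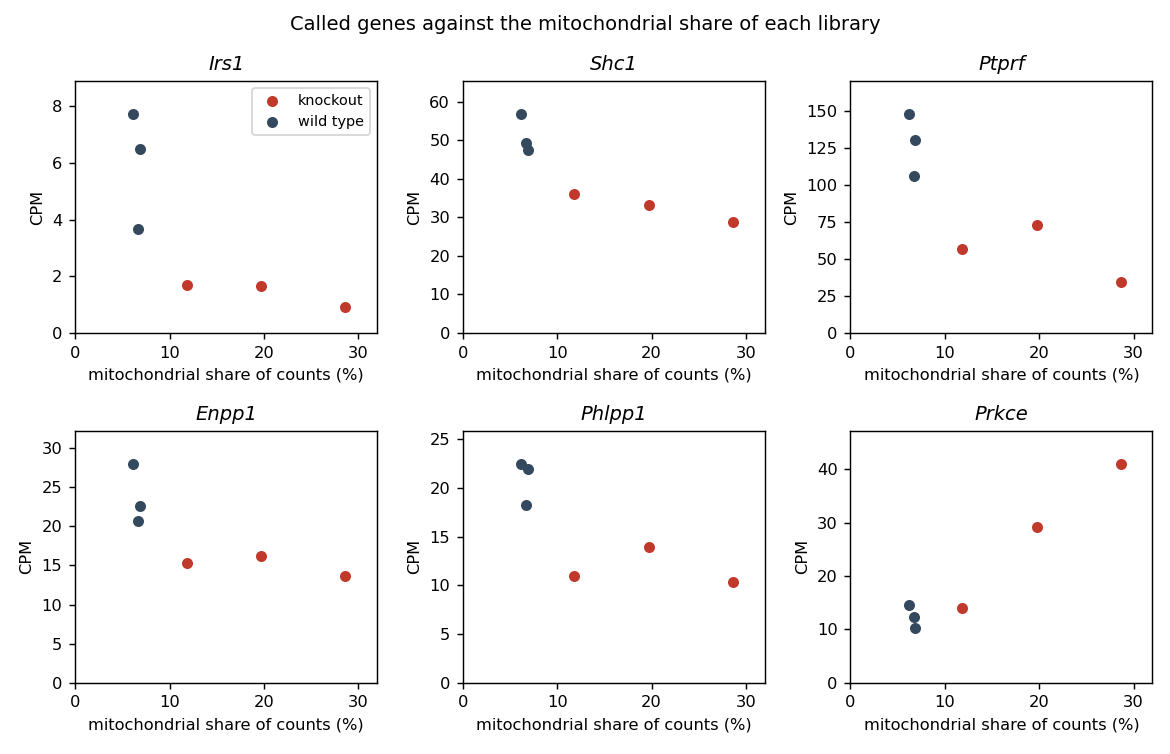
CPM (y axis, from 0) of each called gene against the mitochondrial share of the library's counts (x axis, percent), 3 knockout and 3 wild-type points per panel. Prkce is highest in the knockout libraries of 28.6% and 19.7%, while knockout 4, at 11.8%, lies below the wild types in the 5 genes that fell.

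Levels were compared between genes per exon length, as RPKM (CPM per 1000 exon bases of the GENCODE annotation). The length merges the exons of all annotated transcripts of a gene, so the order between genes depends partly on the annotation. In wild type 9 of the 41 genes averaged 10 RPKM or more, 24 lay between 1 and 10 RPKM, 7 lay lower and Ide was listed at 0. Grb2 led in wild type with 13.7 RPKM in knockout and 18.5 RPKM in wild type, followed by Ceacam1 with 11.5 and 17.8 RPKM. Hras, with 14.3 RPKM in knockout and 12.1 RPKM in wild type, led in knockout. Ptprf stood 15th in knockout and 3rd in wild type, at 5.99 RPKM and 14.0 RPKM. The order among neighbours is loose, since 35 of the 40 neighbouring pairs had overlapping wild-type levels.

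Among the docking proteins, Irs1 was far below Irs2 in both genotypes. Irs1 averaged 0.156 RPKM in knockout and 0.653 RPKM in wild type, and Irs2 averaged 2.42 RPKM in knockout and 4.51 RPKM in wild type. Insr averaged 7.88 RPKM in knockout and 8.84 RPKM in wild type, above both. Akt1 and Akt2 were close, at 11.5 and 11.7 RPKM in knockout and 11.96 and 13.8 RPKM in wild type. Before division by merged exon lengths of 4098 and 7131 bases, they stood apart. Akt1 averaged 47.3 CPM in knockout and 49.0 CPM in wild type, and Akt2 83.6 and 98.3 CPM. Grb14 stood at 8.07 RPKM in knockout and 8.15 RPKM in wild type, and its paralog Grb10 at 0.176 and 0.223 RPKM.

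**Figure D4:**
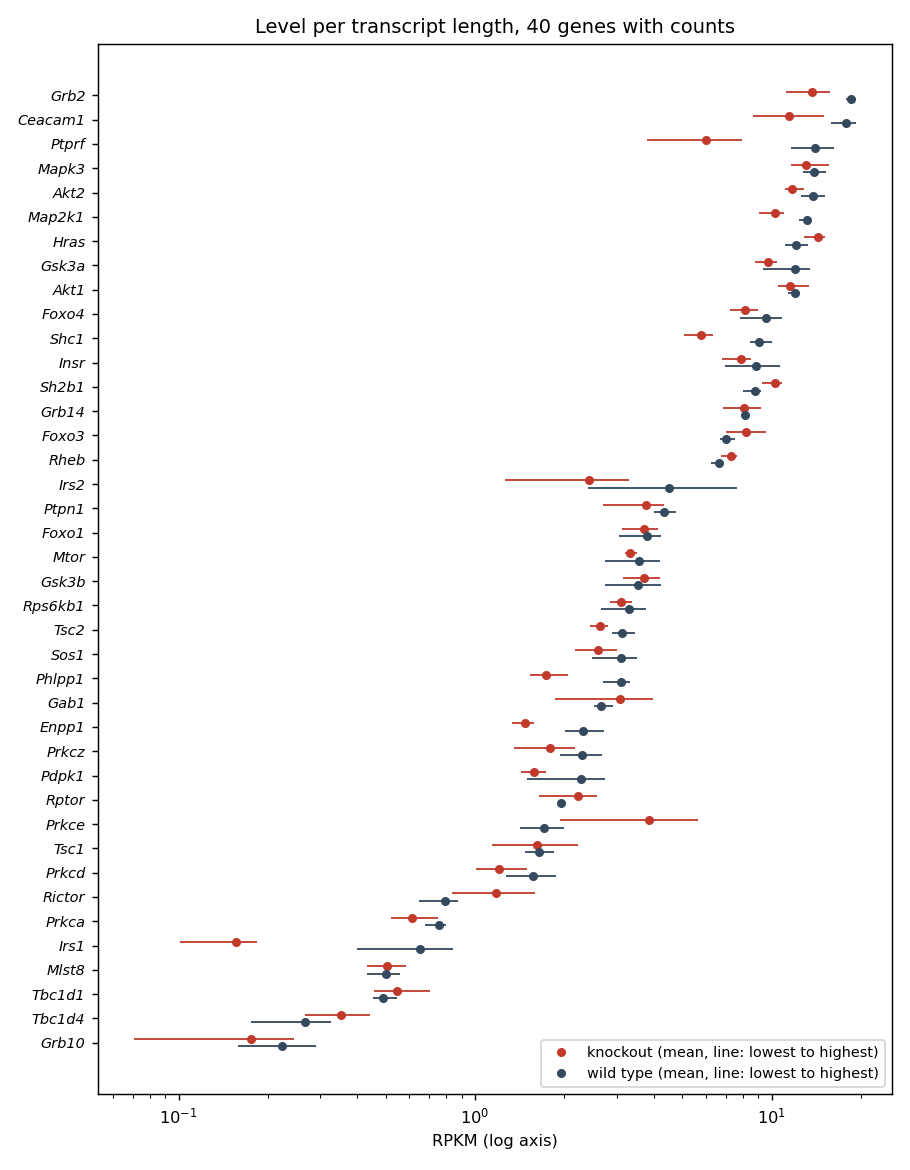
RPKM (x axis, log scale) of the 40 genes with counts, ordered by their wild-type mean, with points for group means and lines from the lowest to the highest library. Irs1 and Ptprf show the widest gaps to the left in knockout, and Prkce lies to the right, at 3.87 RPKM in knockout and 1.70 RPKM in wild type.

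Ratios of related genes within a library depend little on how libraries are scaled, and 9 pairs were compared. With 3 libraries against 3, the exact two-sided permutation test cannot give a p below 0.1, and no adjusted value over the 9 pairs was below 0.45. The log2 ratio of Prkce to Prkcd was 2.64, 1.76 and 1.26 in knockout 1, 2 and 4, against 0.24, 0.46 and 0.76 in wild type 2, 4 and 11. Every knockout ratio exceeded every wild-type ratio (difference 1.40, exact permutation p = 0.1). In knockout 4, however, Prkce itself lay inside the wild-type range at 14.1 CPM. Prkcd was low in that library, at 5.60 CPM against 7.06 to 10.4 CPM in wild type. The log2 ratio of Gsk3a to Gsk3b was −0.30, −0.68 and −0.11 in knockout and 0.08, −0.09 and 0.01 in wild type. These groups too did not overlap, though by a small margin (difference −0.36, exact permutation p = 0.1).

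The other 7 ratios overlapped. The log2 ratio of Irs1 to Irs2 was −3.91, −1.96 and −2.999 in knockout and −1.67, −2.57 and −1.92 in wild type, a difference of −0.91 (exact permutation p = 0.2), with Irs2 the more variable of the pair in both genotypes. The differences were 0.17 for Akt1 to Akt2, −0.23 for Foxo1 to Foxo3, −0.36 for Rptor to Rictor, 0.18 for Tsc1 to Tsc2, −0.22 for Tbc1d1 to Tbc1d4 and −0.31 for Grb10 to Grb14, with exact permutation p-values of 0.2 to 0.7.

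**Figure D5:**
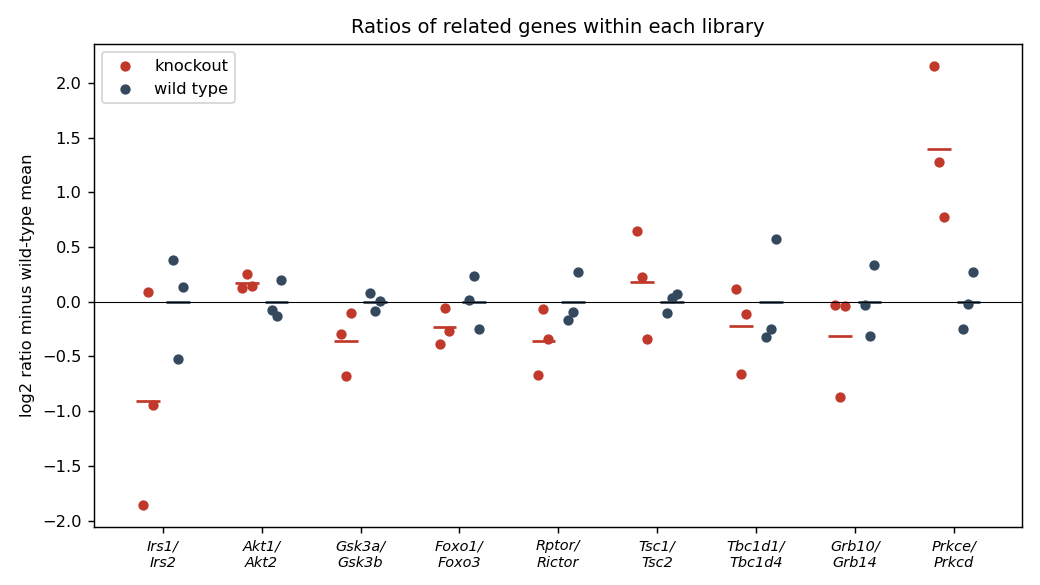
Log2 ratio of 9 pairs of related genes in each library, less the wild-type mean of the pair (y axis), with bars at group means. Knockout and wild-type points separate for Prkce/Prkcd and Gsk3a/Gsk3b and overlap for the other 7 pairs.

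Other genes of the same pathway, listed by role, gave a similar count. Of 113 listed 105 were tested, of which 2 rose and 12 fell, 13.3% called against the 17.0% of all tested genes, with a median of −0.07. At the receptor end Ptpn11, the gene of the phosphatase SHP2 that carries receptor signals to RAS, fell to 25.1, 37.7 and 35.7 CPM in knockout, against 64.4, 68.7 and 49.7 CPM in wild type (−0.89 ± 0.21 SE, edgeR adjusted p = 0.0195). The adaptor Nck1 fell as well (−0.98), and 3 of 13 tested genes at this end were called (23.1%), with 0 higher. In the RAS branch, where 2 of 25 tested genes were called (8%), the exchange factor Sos2 fell by 0.84 on the log2 scale. For Ptpn11, Nck1 and Sos2 every knockout library lay below every wild-type library.

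Among the other mTOR genes calls went both ways, with 2 higher and 2 lower. These were 4 of 31 tested (12.9%), against 17.0% of all tested genes. Akt1s1, which encodes the complex 1 inhibitor PRAS40, rose to 114, 104 and 82.3 CPM in knockout, against 63.0, 65.3 and 51.1 CPM in wild type (0.75 ± 0.19 SE). Tfeb, the lysosomal transcription factor that complex 1 restrains, rose too (0.75 ± 0.21 SE). Rraga, a RAG GTPase that brings complex 1 to the lysosome, fell (−0.95 ± 0.22 SE), and so did the sestrin gene Sesn3 (−0.93). Of 13 other inhibitors tested, Socs3 (−0.82) and the phosphatase subunit gene Ppp2ca (−0.62, edgeR adjusted p = 0.0490) fell and 0 rose. The share called was 15.4%, and 8 of the 13 had a value below 0 and 5 above. Genes on the opposite strand overlap 3093 of the 7490 exon bases of Ppp2ca, so its value is uncertain. The AKT substrate Acly (−1.52) and the forkhead factor Foxk1 (−0.65) fell too, the 2 called of 15 tested PI3K, AKT and FOXO genes (13.3%).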

How the data were processed

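Libraries were made from total liver RNA, 3 from knockouts and 3 from wild types. The deposited values are whole-number raw counts for each gene and library. The submitters' processing notes name mm10, and no source used here gives the aligner, counter, strandedness or handling of multimapping reads. Each library was counted as 1 replicate. Counts were analysed in R 4.3.3 with edgeR 4.0.16 (glmQLFit, TMM, filterByExpr, no covariate), which tested 13304 genes; DESeq2 1.42.0 and limma-voom (limma 3.58.1) were alternatives. The SE was the size of the log2 fold change over the root of the F statistic. Ratios used log2 of CPM plus 0.5. Exon lengths, coordinates and shared 50-base words came from GENCODE M21, and promoters from RefSeq. The genes and lists were chosen with earlier results of these data known. Named in full are called genes, Insr, Irs1, Irs2, Akt2, Foxo1, Mtor and the 5 nearest to passing; Sh2b1, Tsc2, Grb14 and Grb10 were added after their values were seen. Some called genes of the wider pathway list are not reported here.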

Additional observations from a re-analysis of the deposited data

How the results depend on the processing

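The 6 calls among the pathway's genes stood in edgeR with DESeq2's size factors, with a filter of 1 CPM in 3 libraries and with mitochondrial genes left out. Of the calls, 1 rose and 5 fell; limma-voom gave 0 rises, with 1 at an unadjusted p under 0.05. Leaving out 1 library gave 1 to 9 calls, 0 to 2 rises and 1 to 7 falls, and 630 to 4046 calls among all tested genes. Both knockout 4 alone and the mitochondrial covariate gave 0 calls, 0 rises and 0 falls, with 25 and 0 calls among all tested genes (2649 and 1146 at an unadjusted p under 0.05, edgeR). The covariate turned Prkce to −0.14 and Rictor to −0.22. Leaving out 1 library, Foxo1 ran from −0.175 to 0.071 (without knockout 4; 0.015 without wild type 2 and 0.045 without wild type 4) and Mtor from −0.274 to 0.014 (without wild type 2). The ratio of Tsc1 to Tsc2 ran from −0.057 (without knockout 1) to 0.438, and that of Tbc1d1 to Tbc1d4 from −0.388 to 0.068 (without wild type 11). Scaling by library totals moved the median of all genes to −0.16 and that of the pathway's genes to −0.35, and gave 690 rises and 1566 falls over all genes, against 1165 and 1103 with TMM. Library numbers 2 and 4 occur in both genotypes but were not taken as pairs (correlations of −0.049 and 0.058 between same-numbered libraries). In a further fit with library number as a block, knockout 1 and wild type 11 had no same-numbered partner. The genotype difference in that fit thus rests on the libraries numbered 2 and 4 alone. It called 4 genes, 0 of them higher, with 1 higher at an unadjusted p under 0.05. Irs1, Ptprf and Phlpp1 passed, and Shc1, Enpp1 and Prkce did not. Irs2 passed at −1.48, where wild type 11, the library at which its groups overlap (15.2 CPM), adds nothing to the genotype difference. The causes of the other shifts were not tested. At this depth genes below a few CPM, such as Grb10, have wide intervals.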
